A study of Mus musculus with 2 samples.

Results

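Transcripts of 33 genes that mark B cells and plasma cells were followed in RNA-seq read counts of γδ T cells sorted from mouse spleen, as a view of other cells in the sorted fraction. The genes were chosen by symbol, and 32 of the 33 symbols matched a row of the table of 24091 genes. The remaining symbol, Faim3, is an older name of Fcmr in RefSeq, and Fcmr is given beside the 32 and not counted with them. The study had 2 libraries, of which 1 carries the label freshly isolated (hereafter fresh) and 1 the label IL-2 expanded, and both hold splenic γδ T cells, T lymphocytes with a receptor of γ and δ chains. The expanded cells had been stimulated with antibodies against CD3 and CD28 and given interleukin 2 at 100 U/ml over 5 days. The labels give both libraries the same culture and extraction wording, and the fresh library is treated here as uncultured because its treatment label and the design text call it so. Not given in the sources used here were strain, genotype, sex, age and number of animals. With 1 library per group there was no replicate check of any difference, no test was made, and every interval below is a 95% interval for counting error only.

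B cells carry an antigen receptor made of membrane immunoglobulin and the signalling chains CD79a and CD79b, whose signal runs through kinases such as Btk and adaptors such as Blnk. Pax5 and Ebf1 hold B cell identity, and inhibitory receptors such as CD22 and CD72 raise the threshold of the receptor signal. Plasma cells lose much of this surface programme and devote themselves to antibody secretion, with the joining chain, Jchain, built into polymeric antibodies. The spleen is rich in B cells, and several genes of the set are also used elsewhere: Btk, Blnk, Fcgr2b, Ly86, Cd180 and Cd40 in myeloid cells, Spib and Bcl11a in plasmacytoid dendritic cells, and Cxcr5 and Pou2af1 in some T cells. Immunoglobulin genes were not analysed here.

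The promoter windows of 4 genes are shown because Jchain held the highest level of the set and the other three carried a match to a motif of a factor that works in B cells. Windows run from 250 bases before to 50 bases after the start of the gene in RefSeq (build GRCm38.p6), are written in the direction of transcription, and all 4 genes lie on the minus strand. Capitals mark matches, on either strand, to the octamer ATGCAAAT read by Pou2f2 with its coactivator Pou2af1, to CCCNNGGGA, the core of the Ebf1 motif, and to AGAGGAAGT, the core read by PU.1 and Spi-B.
Jchain, chr5:88527848-88528147, no match: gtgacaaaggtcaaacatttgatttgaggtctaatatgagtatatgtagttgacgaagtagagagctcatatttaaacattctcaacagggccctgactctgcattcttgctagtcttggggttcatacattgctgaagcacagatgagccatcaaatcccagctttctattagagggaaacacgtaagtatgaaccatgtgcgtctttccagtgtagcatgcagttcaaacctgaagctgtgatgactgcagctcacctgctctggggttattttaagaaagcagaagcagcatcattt
Blnk, chr19:40994172-40994471, octamer: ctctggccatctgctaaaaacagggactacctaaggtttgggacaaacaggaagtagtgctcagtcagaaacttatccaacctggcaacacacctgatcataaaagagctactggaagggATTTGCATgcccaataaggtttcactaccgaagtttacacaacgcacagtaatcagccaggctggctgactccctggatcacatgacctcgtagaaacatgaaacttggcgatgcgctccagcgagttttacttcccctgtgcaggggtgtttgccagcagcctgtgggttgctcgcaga
Cd22, chr7:30878979-30879278, Ebf1 core: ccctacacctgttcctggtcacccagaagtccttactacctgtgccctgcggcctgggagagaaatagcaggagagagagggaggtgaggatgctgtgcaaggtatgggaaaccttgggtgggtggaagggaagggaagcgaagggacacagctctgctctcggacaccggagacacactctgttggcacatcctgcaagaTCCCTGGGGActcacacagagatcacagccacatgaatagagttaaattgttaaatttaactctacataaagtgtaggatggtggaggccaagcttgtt
Cd72, chr4:43454577-43454876, PU.1 and Spi-B core: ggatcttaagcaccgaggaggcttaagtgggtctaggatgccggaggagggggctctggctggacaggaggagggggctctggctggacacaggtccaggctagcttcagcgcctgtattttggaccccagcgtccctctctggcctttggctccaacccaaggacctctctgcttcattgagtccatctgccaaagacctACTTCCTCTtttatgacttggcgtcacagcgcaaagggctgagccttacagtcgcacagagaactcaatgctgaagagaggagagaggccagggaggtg

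Of the 32 genes, 27 had a window in the RefSeq table, with 33 windows between them. The octamer stood in the windows of Blnk and Vpreb3, in 2 of 33 windows (6.06%) against 1.74% of all 32851 windows of that length. The Ebf1 core stood in Cd22 and Sdc1, again 2 of 33 windows (6.06%), against 6.56% of all windows. The PU.1 and Spi-B core stood in Cd72, 1 of 33 windows (3.03%), against 1.005% of all windows. In Cd22 the 2 Ebf1 matches lie on opposite strands, start at bases 202 and 203 of the window and overlap each other. No match of one motif overlapped another motif. The RefSeq start lay 1314 bases downstream of the end of the deposited span for Cd22 and 314 bases downstream for Blnk, and at that end for Jchain and Cd72. A match describes letters in these windows and not a bound site.

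Nearly all of the B lineage transcripts were lower in the expanded library, and most were close to or at 0 counts there. Their summed level was 1363 CPM (counts per 1000000 of the library size after scaling; counting interval 1347 to 1379) in fresh cells and 30.4 CPM (28.1 to 32.9) in expanded cells. This was 0.144% of all counts in the first library and 0.00288% in the second. Jchain alone gave 57.5% of the set's counts in fresh cells, and without it the sums were 579 and 30.4 CPM. Of the 32 genes, 30 were lower by 4-fold or more in the expanded library and none was higher by as much, where 9.36% of all 24091 genes were that far down and 5.33% that far up. At 2-fold, 31 of the 32 were lower and none higher, beside 18.0% and 13.8% of all genes. A mean of 1 CPM or more was reached by 28 of the 32, of which 27 were at least 4-fold lower and none as far up, beside 13.5% and 8.92% of 11715 genes, but low genes enter that filter mostly through the fresh library. The median log2 fold (expanded relative to fresh, prior count of 2) was -4.91 over the 32 genes, or -4.59 with genes at 0 counts set to a floor of 3 counts, and 0.00 over all genes in the table. Folds given as at least a size are set against that floor, and the lower end of the 2-sided 95% counting interval, given beside some of them, lies further down. Genes with 1 or 2 counts in expanded cells keep their plain ratio, without the floor. Their ratios are therefore not on the same footing as the folds of genes at 0 counts. In bulk RNA, fewer cells of a type and less RNA per cell cannot be told apart. Nor can transcripts of other cells be told from those of the γδ T cells themselves, since some genes of the set are also used by T cells.

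**Figure D1:**
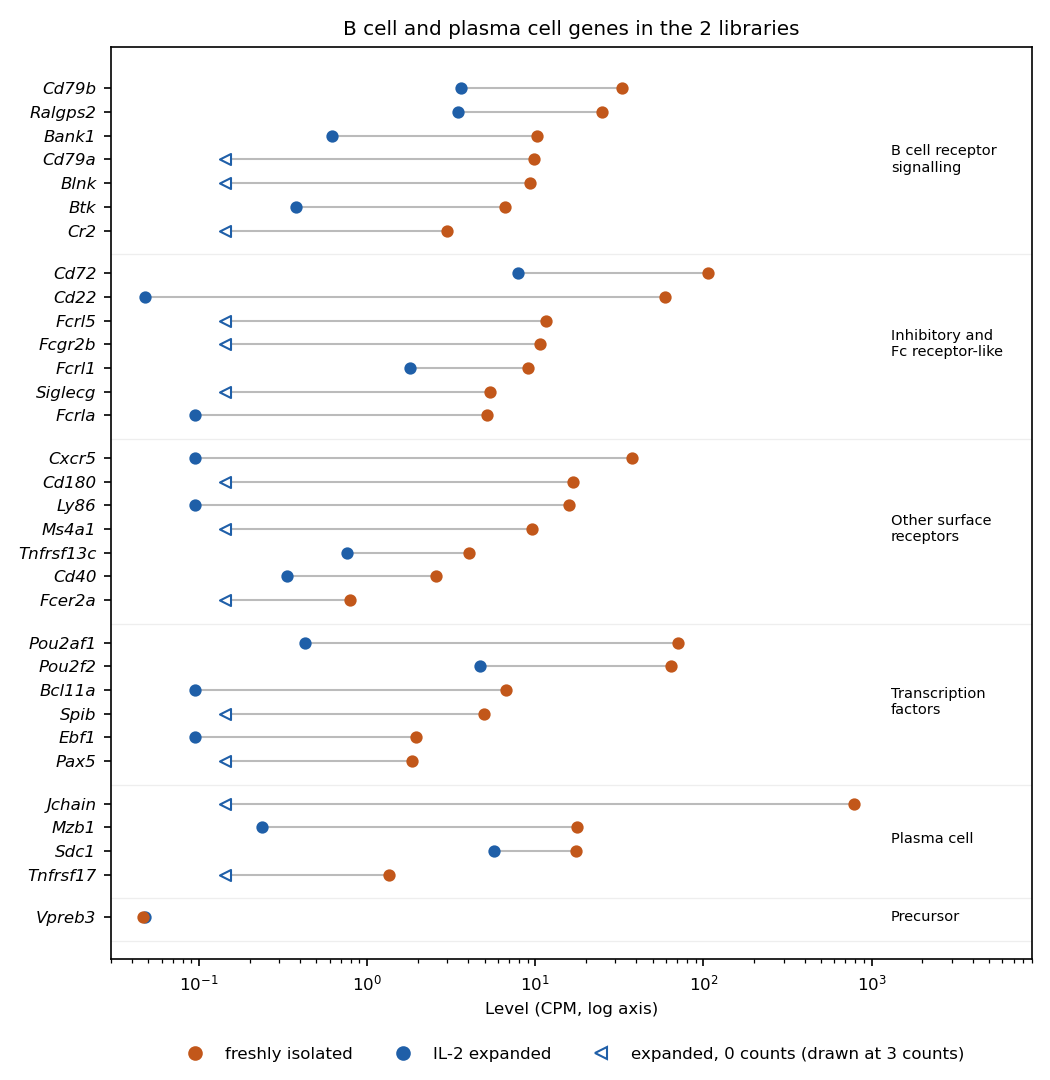
Level of each of the 32 B cell and plasma cell genes in CPM on a log axis, grouped by role, with 1 point per library and no replicates. Orange points are fresh cells and blue points IL-2 expanded cells, and open triangles mark 0 counts in the expanded library, drawn at the floor of 3 counts (0.143 CPM), so that genes with 1 or 2 counts lie to their left. For every gene except Vpreb3 the fresh point is to the right.

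The depth was 20379385 counts in the fresh and 22204099 in the expanded library, where 1 count equals 0.0465 and 0.0476 CPM. The 12 T cell markers, taken as a check of the label, summed to 7033 and 6610 CPM with none at 0 counts in either library. Cd3e, a chain of the T cell receptor complex, stood at 734 and 688 CPM and the kinase gene Lck at 1184 and 563 CPM. Thy1, a T cell surface marker, was higher in expanded cells (847 and 2278 CPM), and without it the sums were 6186 and 4331 CPM. Cd5 (132 and 4.42 CPM) and Cd2 (396 and 76.2 CPM), a pair of surface receptors, were at least 4-fold lower. Constant genes of the γ and δ chains were not analysed here, so the markers show T cells and not the γδ type.

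Both signalling chains of the B cell receptor were present in fresh cells, and 1 of them was still counted in the expanded library. Cd79a (chromosome 7, 24897511 to 24902197, build GRCm38) had 213 counts, 9.90 CPM, in fresh cells against 0 counts after expansion, at least 69.3-fold lower against the floor (lower end of the interval 55.9). Cd79b (chromosome 11, 106311341 to 106314562) had 709 counts and 76 counts, 32.9 and 3.61 CPM, 9.11-fold lower (interval 7.18 to 11.7). Per kb of gene model, Cd79b stood 3.59 times as high as Cd79a in fresh cells, at 26.9 and 7.49 CPM per kb. In expanded cells Cd79b stood at 2.95 CPM per kb beside Cd79a at 0 counts, so the 2 chains, which pair in the receptor, did not keep a common proportion.

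Transcripts of the other genes grouped here with receptor signalling were also lower, some of them by a smaller factor. The adaptor gene Blnk, whose window holds the octamer printed above, had 201 counts and 0 counts (9.34 CPM in fresh cells, at least 65.4-fold lower). Cr2, a complement receptor that lowers the threshold of the B cell receptor, had 64 counts and 0 counts (2.97 CPM, at least 20.8-fold lower). The scaffold gene Bank1 stood at 10.3 and 0.618 CPM (221 and 13 counts), and the kinase gene Btk at 6.597 and 0.381 CPM (142 and 8 counts). Ralgps2, an exchange factor for Ral GTPases, was the least reduced of these genes in ratio, at 24.9 and 3.47 CPM (537 and 73 counts), 7.18-fold lower (interval 5.62 to 9.30). All 7 genes of this role were at least 4-fold lower, beside 13.5% of the 11715 genes with a mean of 1 CPM or more, as all 7 had. In expanded cells 3 of the 7 had 0 counts, beside 4.15% of the 12464 genes with at least 10 counts in fresh cells.

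All 7 inhibitory and Fc receptor-like genes were at least 4-fold lower in expanded cells, with Cd22 and Cd72 far apart in fold. Of the 11715 genes with a mean of 1 CPM or more, as all 7 had, 13.5% were that far down. Cd72, an inhibitory receptor of B cells, had 2284 and 165 counts, 106 and 7.85 CPM, 13.5-fold lower (interval 11.5 to 15.9). Its exons overlap those of Tesk1 on the opposite strand over up to 1423 bases in the GENCODE annotation, and Tesk1 had 1351 and 955 counts. Since the use of strand in counting was not given in the sources used here, part of the Cd72 counts cannot be told apart from Tesk1. Cd22 (chromosome 7, 30865404 to 30880342), a lectin that restrains the receptor, had 1272 counts in fresh cells (59.1 CPM) and a single count, 1, after expansion, a ratio of 1242 (interval 223 to 49104.5). The intervals of Cd22 and Cd72 do not meet. They treat each read as a separate count, however, and the Cd22 ratio rests on 1 count in expanded cells.

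The other receptors of this role were at 5.16 to 11.7 CPM in fresh cells. Fcgr2b, the inhibitory receptor for IgG, had 231 and 0 counts, Fcrl5 251 and 0 counts, and the sialic acid-binding receptor gene Siglecg 116 and 0 counts, which makes them at least 75.2-fold, 81.7-fold and 37.8-fold lower against the floor (lower ends of the intervals 60.7, 65.96 and 30.2). Fcrla, an Fc receptor-like protein kept inside the cell, had 111 and 2 counts, a ratio of 54.2 (interval 14.7 to 453). Fcrl1 differed from its relatives in that it remained countable, at 195 and 38 counts, 9.06 and 1.81 CPM, 5.01-fold lower (interval 3.53 to 7.29). The intervals of Fcrl1 and Fcrl5 do not meet.

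Other surface receptors were at or near 0 counts in expanded cells, except Tnfrsf13c and Cd40, which kept more than 3 counts. Cxcr5, the chemokine receptor for B cell follicles, had 809 and 2 counts, 37.6 and 0.0951 CPM, a ratio of 395 (interval 109 to 3268). Ms4a1, which encodes CD20, had 206 and 0 counts (9.57 CPM, at least 67.1-fold lower), and Fcer2a, the low-affinity IgE receptor CD23, had 17 and 0 counts (0.790 CPM, at least 5.53-fold lower). Cd180, a Toll-like receptor relative, had 361 and 0 counts, and Ly86, which encodes the MD-1 partner of CD180, had 342 and 2 counts, so the genes of this receptor pair, at 16.8 and 15.9 CPM in fresh cells, were both under the floor of 3 counts in expanded cells. Short stretches of exon are shared with genes of the other strand, up to 110 bases of Cxcr5 with Bcl9l and up to 182 bases of Cd180 with Mast4. Among the other roles, exons of Cd22, Fcgr2b, Bcl11a and Pax5 overlap antisense genes, those of Mzb1 overlap a gene model on its own strand over up to 459 bases, and those of Pou2f2 hold a microRNA gene, so the values of these genes carry the same limit. Tnfrsf13c, the receptor for the survival factor BAFF, stood at 87 and 16 counts, 5.31-fold lower (interval 3.09 to 9.70), and the costimulatory receptor gene Cd40 at 55 and 7 counts, 7.67-fold lower (interval 3.49 to 19.97). Fcmr, the IgM receptor gene that carried the older name Faim3, stood at 208 and 75 counts, 9.66 and 3.57 CPM, 2.71-fold lower (interval 2.07 to 3.58).

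The identity factors of B cells were low in fresh cells, with Pax5 at 1.55 and Ebf1 at 0.225 CPM per kb, while the octamer factor and its coactivator stood higher. Pax5 had 40 and 0 counts (1.86 CPM, at least 13.02-fold lower) and Ebf1 42 and 2 counts at 1.95 CPM in fresh cells, a ratio of 20.5 (interval 5.34 to 175). Pou2af1, the coactivator of the octamer factors, had 1527 and 9 counts, 70.9 and 0.428 CPM, 166-fold lower (interval 87.1 to 363). Pou2f2, which encodes the octamer factor Oct-2, had 1388 and 99 counts, 64.5 and 4.71 CPM, 13.7-fold lower (interval 11.2 to 17.0). Per kb of gene model the coactivator stood above its partner in fresh cells (27.7 and 17.4 CPM per kb) and under it in expanded cells (0.167 and 1.27 CPM per kb). Pou2af1 was 17.9 times and Pou2f2 11.2 times as high as Pax5 per kb in fresh cells. Spib, an ETS factor close to PU.1, had 107 and 0 counts, and Bcl11a, a zinc finger factor of early B cells, 144 and 2 counts.

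**Figure D2:**
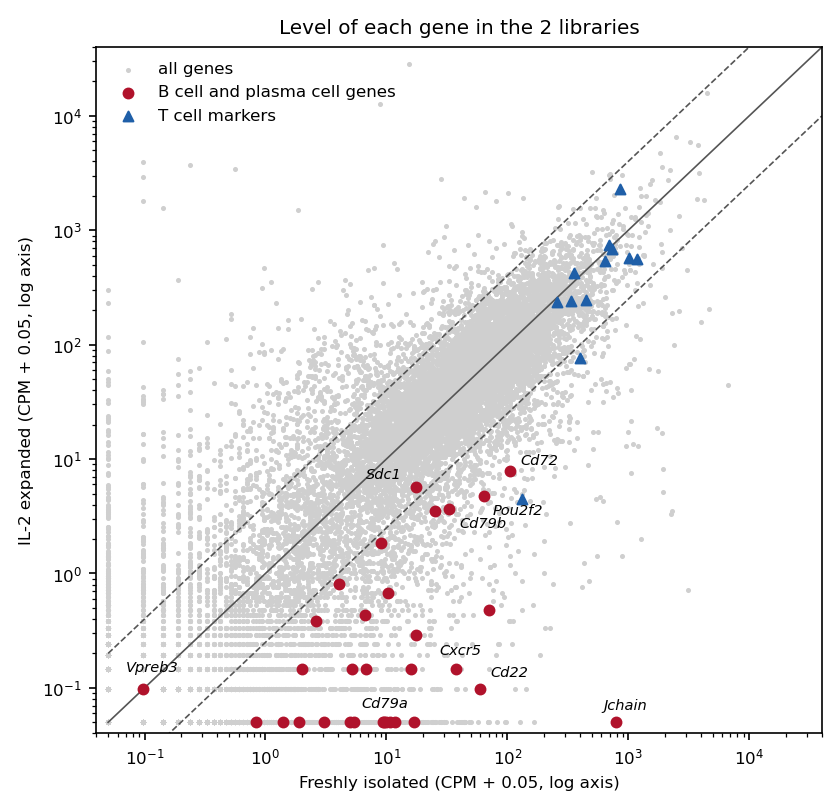
Level of every gene in fresh cells (horizontal) against IL-2 expanded cells (vertical), in CPM plus 0.05 on log axes, with B cell and plasma cell genes in red, the 12 T cell markers as blue triangles and all 24091 genes in grey. The solid line marks equal levels and the dashed lines 4-fold, and 30 of the 32 red points lie below the lower dashed line, with Jchain far to the right at 0 counts in the expanded library.

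Plasma cell transcripts were led by Jchain. Jchain (chromosome 5, 88519809 to 88527897) had 16882 counts in fresh cells, 784 CPM (interval 772 to 796), and 0 counts after expansion. Against the floor of 3 counts, 0.143 CPM, it was at least 5496-fold lower, and the 2-sided interval allows up to 0.175 CPM in expanded cells and starts at 4469-fold lower. Per kb of gene model it stood at 374 CPM per kb. This was 5.26 times the level of Cd72 (with the Tesk1 overlap given above), 19.1 times that of Mzb1 and 49.9 times that of Cd79a. Jchain was the only gene of the set above the median of the T cell markers in fresh cells, 267 CPM per kb (range 64.4 to 687). The median of the 32 genes was 3.19 CPM per kb.

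The other plasma cell genes stood at 19.6 (Mzb1), 5.71 (Sdc1) and 1.67 (Tnfrsf17) CPM per kb in fresh cells, and their folds were far apart. Mzb1, a chaperone of antibody assembly, had 380 and 5 counts, 17.7 and 0.238 CPM, 74.2-fold lower (interval 31.5 to 229.9). Tnfrsf17, the plasma cell survival receptor BCMA, had 29 and 0 counts (1.35 CPM, at least 9.44-fold lower). Sdc1, which encodes the plasma cell surface marker CD138, had 375 and 119 counts, 17.4 and 5.66 CPM, 3.08-fold lower (interval 2.50 to 3.82), and was the gene of the set with the smallest ratio among those with more than 1 count in both libraries. Sdc1 is also made by epithelial cells and by some γδ T cells. Vpreb3, of precursor B cells, had 1 count in each library, too few for a fold.

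In the expanded library the counts of the set ran from 0 to 165, with 20 of the 32 genes at 0 to 3 counts, 6 at 4 to 30 counts and 6 above. Of the 31 genes with at least 10 counts in fresh cells, 13 had 0 counts and 19 had at most 3 counts in expanded cells, beside 4.15% and 8.01% of all 12464 genes with that many counts. Genes enter that comparison through the fresh library alone, so it can show loss and not gain. The fresh levels of the 13 ran from 0.790 to 16.8 CPM with Jchain, at 784 CPM, apart. Cd72, Sdc1, Pou2f2, Cd79b, Ralgps2 and Fcrl1 were the 6 genes with over 30 counts, while Mzb1, Cd40, Btk, Pou2af1, Bank1 and Tnfrsf13c had 5 to 16. The first 6 gave 570 of the set's 640 counts (89.1%) in expanded cells. Cd72, with the most of them at 165, carries the exon overlap with Tesk1 given above. Grouping by what remained was made after the values were seen.

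Other genes of B cell receptor signalling, most of which T cells also use, were more mixed. Of 19 such genes, 5 were at least 4-fold lower and none as far up (median log2 fold -0.79, beside 0.00 for all genes), and their sums were 4869.9 and 3619 CPM. All 19 had a mean of 1 CPM or more, and of the 11715 genes that did, 13.5% were that far down and 8.92% that far up. The Src family kinase gene Blk, also known from γδ T cells, had 1508 and 2 counts, and Cd81, a tetraspanin of the cell surface, 686 and 13 counts. Rac2 and Pik3cd, the 2 of highest summed level, stood at 1072 and 901 CPM and at 1002 and 916 CPM. Plcg2 (37.3 and 127 CPM), the phospholipase downstream of Btk, and Pik3ap1 (38.3 and 107 CPM), an adaptor for PI 3-kinase, were the 2 genes that were higher by 2-fold or more after expansion.

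Other transcription factors of B and plasma cells likewise went both ways, with 6 of 14 down by 4-fold or more and 2 up by as much (median log2 fold -1.30). The shares over all 24091 genes were 9.36% and 5.33%. A mean of 1 CPM or more was reached by 13 of the 14, of which 6 were down and 2 up. Over the 11715 genes that reached it, the shares were 13.5% and 8.92%. Spi1, which encodes PU.1 and is also a myeloid factor, had 380 and 0 counts, and Mef2c 234 and 2 counts. The antibody secretion factors Prdm1 (21.6 and 66.7 CPM) and Ell2 (26.2 and 123 CPM) were at least 2-fold higher in expanded cells, where Jchain had 0 counts, and Xbp1 stood at 165 and 294 CPM. Prdm1 and Xbp1 are also expressed by activated T cells. Irf8, a factor of B and myeloid cells, stood at 45.8 and 382 CPM. Ikzf1 (1026 and 451 CPM) and Foxo1 (432 and 89.6 CPM), the 2 of highest summed level, are factors of B and T cells alike. The MHC class II genes, shared by B cells, dendritic cells and macrophages, were all at least 4-fold lower (10 of 10, median log2 fold -4.92). All 10 had a mean of 1 CPM or more, where 13.5% of genes were that far down. Their summed levels were 1325 and 17.6 CPM, and Cd74, the invariant chain gene, stood at 582 and 4.61 CPM.

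Most macrophage markers and all red cell markers in the table were also at least 4-fold lower, while dendritic cell markers were more mixed. Over all 24091 genes, 9.36% were that far down and 5.33% that far up, and over the 11715 with a mean of 1 CPM or more 13.5% and 8.92%. At that mean, 14 of 17 macrophage, 4 of 6 dendritic cell and 5 of 5 red cell markers were at least 4-fold lower. Of 18 macrophage markers, 15 were at least 4-fold lower (median log2 fold -8.85), with sums of 1217 and 87.5 CPM. In expanded cells 11 of the 18 had 0 counts, among them C1qa, C1qb, C1qc, Lyz2, Spic and Vcam1. All 18 had at least 10 counts in fresh cells, and of the 12464 genes that did, 4.15% had 0 counts in expanded cells. Hmox1 (119 and 63.0 CPM), Cd68 (38.3 and 20.7 CPM) and Cd14 (12.7 and 3.47 CPM) were the 3 less than 4-fold apart, and they gave 87.2 of the 87.5 CPM. Csf1r, the defining receptor gene of macrophages, had 3044 and 1 counts. Of 10 dendritic cell markers, 5 were at least 4-fold lower and none as far up (sums 186 and 58.1 CPM). Among the 5 were Itgax (120 and 4.19 CPM) and Flt3 (139 and 0 counts). Siglech, which defines plasmacytoid dendritic cells, had 3 and 0 counts. Tcf4, a factor of plasmacytoid dendritic cells that other cells also use, stood at 952 and 1111 counts and made up most of the list's 1222 counts in expanded cells, and the dendritic cell receptor gene Xcr1 had 3 and 4 counts. All 6 red cell markers in the table were at least 4-fold lower (sums 88.1 and 0.0951 CPM), with Hbb-bs at 964 and 0 counts. Of 12 immediate early and heat shock genes, which respond to handling of tissue and some of them to receptor signals, 11 were at least 4-fold lower (sums 17687 and 742 CPM). The part of these cells in the levels of Btk, Blnk, Fcgr2b, Ly86, Cd180, Cd40, Spib and Bcl11a was not tested. Of 12 T cell markers, 2 were at least 4-fold lower and none as far up (median log2 fold -0.36). All 12 had a mean of 1 CPM or more, and of the 11715 genes that did, 13.5% were that far down and 8.92% that far up.

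**Figure D3:**
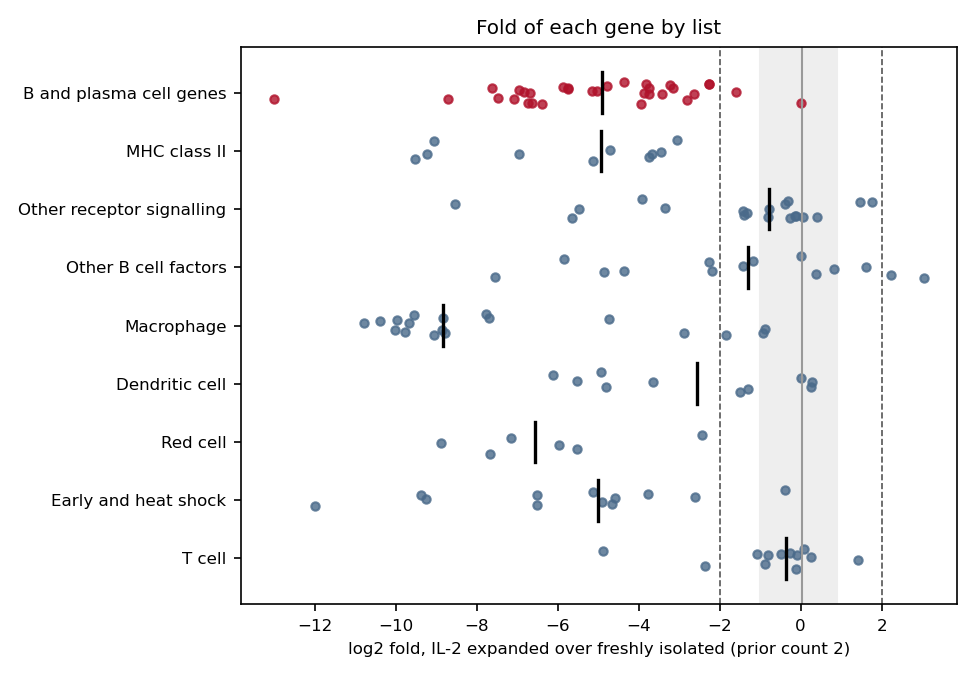
Log2 fold of each gene, expanded relative to fresh with a prior count of 2, in the B cell and plasma cell set (red) and in 8 other lists (blue). Black bars mark list medians, dashed lines 4-fold, the grey line and band the median and middle 50% of genes whose mean reached 1 CPM, and points are spread vertically at random. The red points run from -13.03 for Jchain to 0.01 for Vpreb3. The median of the macrophage markers (-8.85) lies to the left of the red median (-4.91), while Cd68, Hmox1, Cd14, Marco and Fcgr1 lie to the right of the red median.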

How the data were processed

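The authors deposited raw whole-number counts of reads per gene in 1 column per library, with gene symbols, spans and the length of each gene model in kb (another kind of value, deposited by the authors). Per the submitters' processing notes, the series used edgeR 3.28.1, HTSeq 0.6.0 (a read counter), STAR 2.6.0 (an aligner) and bcl2fastq 2.18.0.12, with builds GRCm38 and mm10. Not given in the sources used here are their settings, the use of strand and the annotation release.

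Counts were scaled with TMM factors (1.056 freshly isolated, 0.947 expanded; edgeR 4.0.16, R 4.3.3) to CPM. Folds of single genes are ratios of CPM with exact 95% Clopper-Pearson intervals from the conditional binomial distribution. Sums have exact Poisson intervals. Intervals and floors cover counting error only, since reads without molecular identifiers can repeat a molecule. A floor of 3 counts replaced 0 counts in folds. Counts of genes by fold use log2 folds with a prior count of 2. With 1 library per group no p-value was computed. CPM per kb uses the deposited length. Exon overlaps come from GENCODE vM21 (GRCm38), promoter windows from RefSeq (GRCm38.p6).

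All 32 genes are accounted for, in 6 roles. Of other lists, the rule allows the 2 genes of highest summed level and genes at least 2-fold higher, of which the text names a selection, and other genes named there (such as Blk, Cd81, Spi1, Mef2c, Xbp1 and most markers of other cells) were chosen after their values were seen. The genes and lists were chosen with earlier results of these data known, and 1 gene fixed in the list of other receptor signalling genes is not reported here. In simulated data for this comparison the calculation was tested before use. Alternatives were 4 other scalings (among them DESeq2 1.42.0 size factors), prior counts of 0.5 and 5, no filter, and a mean of at least 5 CPM.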

Additional observations from a re-analysis of the deposited data

How the results depend on the processing

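At a mean of 1 CPM or more, 27 B lineage genes were at least 4-fold lower. That count was the same under all 4 other scalings and both other prior counts. It was 30 without a filter and 15 with a mean of at least 5 CPM. Fewer genes enter at 5 CPM, and every gene of the set that entered, except Sdc1, was at least 4-fold lower. None of the set was at least 4-fold higher under any of these settings. Over all genes, 1578 of 11715 (13.5%) were at least 4-fold lower at a mean of 1 CPM or more, and 992 at a mean of at least 5 CPM. The total of genes that reach 5 CPM is not given here, so the 992 has no share. The median log2 fold of the 32 genes was -5.97 with a prior count of 0.5 and -3.90 with a prior count of 5, since genes at 0 counts take their fold from the prior, and stayed within 0.1 under other scalings. Scaling by total count moved the median log2 fold of genes whose mean reached 1 CPM from 0.04 to -0.12. The summed level in freshly isolated cells was 1439.6 CPM scaled by total count, 1396.5 CPM by upper quartiles, 1401 CPM by total count once the top 50 genes per library were left out, and 579 CPM without Jchain, an alternative chosen after seeing the data. Of 192 single-gene folds under 6 alternatives, 13 left their counting interval, all for genes at 0 or 1 count with a prior count of 5. Of the 32 genes, 31 stayed lower by 2-fold or more under all 6, 30 of them by 4-fold or more, and the exception to a direction was Vpreb3, with 1 count in each library. No paired analysis was possible because there was 1 library per group. At this depth, levels under 0.139 CPM (freshly isolated) and 0.143 CPM (expanded) could not be told from 0.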
